A study of Mus musculus with 55 samples.

Results

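The regenerating islet-derived (Reg) genes Reg1, Reg2, Reg3a, Reg3b, Reg3d and Reg3g were followed in bulk RNA-seq of whole mouse islets. These 6 genes were chosen by name among the 47937 genes of the deposited count table, and all 6 were found. The series compares islets with and without Eed, a core subunit of Polycomb repressive complex 2 (PRC2), which deposits the silencing mark H3K27me3. Of its 55 samples, 16 are the bulk islet libraries used here. Animals were C57B6/J and, per the study's methods, males. The wild-type (WT) group had 3 libraries at 8 weeks and 3 at 25 weeks, the heterozygous (HET) group 3 and 2, and the Eed -/- group, here called βEedKO (KO in the plots), 3 and 2. In βEedKO animals a Cre transgene under the insulin promoter (RIP-cre) excised both floxed Eed alleles. The deletion was therefore directed at β cells, while the RNA came from all cells of islets that had been purified by collagenase digestion, picked by hand and kept in culture. The labels name the HET alleles only as heterozygous. Per the methods, libraries held islets of single animals or of pools, and those of βEedKO at 25 weeks were always from pools.

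Reg genes encode small secreted C-type lectin-like proteins. Reg1 was first cloned from regenerating islets, yet in the adult pancreas the family is made mainly by acinar cells, the exocrine cells that secrete digestive enzymes, and is released into pancreatic juice. Reg3b, also known as pancreatitis-associated protein, and Reg3g are antimicrobial lectins that are induced in injured pancreas and in gut epithelium by cytokines of the IL-6 and IL-22 group acting through STAT3. Because islet preparations carry acinar cells with them, each library was read against the acinar transcripts Ctrb1 (chymotrypsinogen B1) and Cpa1 (carboxypeptidase A1). In bulk samples, fewer cells of a type and less RNA per cell cannot be told apart.

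The 6 genes lie side by side on chromosome 6 within 98216 bp of GRCm38. In order they are Reg3b (ENSMUSG00000071356.7, 78370657 to 78373466, plus strand), Reg3d (ENSMUSG00000068341.8, 78375874 to 78378865, minus strand), Reg3a (ENSMUSG00000079516.2, 78380709 to 78383827, plus), Reg2 (ENSMUSG00000023140.4, 78395623 to 78408106, plus), Reg1 (ENSMUSG00000059654.7, 78422711 to 78428667, plus) and Reg3g (ENSMUSG00000030017.2, 78466269 to 78468872, minus). Their coding sequences had 495 to 525 bases. Reg1 and Reg2 were the closest pair, identical at 82.6% of 495 aligned coding bases. Reg3g matched Reg3b at 76.4% and Reg3a at 73.2%, and Reg3a matched Reg3b at 75.3%. Reg3d stood at a similar distance from all others, with 62.7% to 66.8% identity. No stretch of 50 bases of a Reg transcript occurred in the transcripts of another Reg gene. Reg1 and Reg2 shared 3.65% and 11.3% of their 50-base stretches with unrelated transcripts, and the other 4 members shared 0%. Exact matches of that length therefore did not join 1 member to another.

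The 150 bases before each RefSeq start site (GRCm38.p6, read 5′ to 3′ on the strand of the gene) are shown because Reg1 and Reg3d moved together across libraries while Reg3b and Reg3g departed from them, so that the promoters can be set side by side. Capitals mark a TATA box (TATAAA) or a STAT site (TTCNNNGAA).
Reg1: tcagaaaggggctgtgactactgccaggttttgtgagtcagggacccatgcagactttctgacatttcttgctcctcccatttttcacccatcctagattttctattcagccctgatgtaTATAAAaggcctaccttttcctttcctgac
Reg2: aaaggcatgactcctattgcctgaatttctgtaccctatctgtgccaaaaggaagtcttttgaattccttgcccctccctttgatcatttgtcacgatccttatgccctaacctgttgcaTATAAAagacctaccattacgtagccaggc
Reg3d: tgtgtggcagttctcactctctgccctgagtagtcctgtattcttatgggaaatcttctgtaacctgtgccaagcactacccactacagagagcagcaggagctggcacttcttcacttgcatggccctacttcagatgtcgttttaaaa
Reg3a: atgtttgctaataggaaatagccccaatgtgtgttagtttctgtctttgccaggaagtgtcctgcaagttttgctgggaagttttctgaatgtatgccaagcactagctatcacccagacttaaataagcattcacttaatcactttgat
Reg3b: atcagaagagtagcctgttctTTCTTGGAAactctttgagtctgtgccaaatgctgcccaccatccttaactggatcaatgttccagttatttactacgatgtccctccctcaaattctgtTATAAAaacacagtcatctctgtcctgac
Reg3g: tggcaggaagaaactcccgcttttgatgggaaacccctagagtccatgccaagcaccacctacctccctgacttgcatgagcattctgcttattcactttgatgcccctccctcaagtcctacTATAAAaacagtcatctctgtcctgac
The windows are chr6:78425833-78425982 for Reg1, chr6:78405005-78405154 for Reg2, chr6:78378866-78379015 for Reg3d, chr6:78380559-78380708 for Reg3a, chr6:78370735-78370884 for Reg3b and chr6:78468875-78469024 for Reg3g. A search of 250 bases before the start on both strands found TATAAA in 4 of 6 members, beginning at position -30 in Reg1 and Reg2, -29 in Reg3b and -27 in Reg3g, against 12.4% of 32817 RefSeq promoters. Reg3g held a second match at -161 on the other strand. The STAT site was present in 2 of 6, at -129 in Reg3b and at -238 in Reg3d, against 7.01% of promoters. The E-box CACCTG was found in 4 of 6 (Reg2, Reg3a, Reg3b and Reg3d), against 17.2%, and the C/EBP site TTGCNNAA in 2 of 6 (Reg2 and Reg3a), against 9.57%. These matches describe letters in the window and do not show binding.

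Total counts ranged from 4645393 (WT replicate 2 at 25 weeks) to 22925359 reads per library. Eed had 23.9, 33.1 and 31.2 CPM (reads of the gene per fixed library total, scaled by TMM) in WT at 8 weeks and 14.9, 13.4 and 14.8 in βEedKO, and 28.3, 22.0 and 19.3 against 15.6 and 14.2 at 25 weeks, so every βEedKO library was below every WT library. The fold change did not pass the adjusted threshold at either age (log2 fold change -1.04, adjusted p = 0.0881 at 8 weeks and -0.69, adjusted p = 0.142 at 25 weeks). Hormone transcripts summed to 131125 to 244464 CPM in all libraries except those of βEedKO at 25 weeks (29612 and 35221), where Ins1 and Iapp were lower, as given further on, so islet hormones were detected in every library. Acinar genes were present in every library and none of 29 was at 0 in all of them. Their sum ran from 17497 CPM in βEedKO replicate 3 at 25 weeks to 572383 CPM in βEedKO replicate 2 of the same group. At 8 weeks, 4 libraries stood apart in 10 interferon-induced genes: WT replicates 3 and 4 and βEedKO replicates 4 and 5 summed to 4183 to 6925 CPM, against 66.9 to 180 CPM in the other 12. Whether the interferon difference marks a batch is not stated, and its part in the results at 8 weeks was not tested, but values with and without these libraries are given.

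Reg1 was by far the most abundant member. Its level ran from 485 to 12379 CPM over the 16 libraries, a 25.5-fold range, with a median of 1517 CPM. At 8 weeks WT islets had 11060, 1600 and 569 CPM, HET islets 4656, 1434 and 1665 CPM, and βEedKO islets 1967, 673 and 847 CPM. At 25 weeks WT islets had 4791, 661 and 4638 CPM, HET islets 1020 and 639 CPM, and βEedKO islets 12379 and 485 CPM. The highest and the lowest library of the whole series were thus both βEedKO at 25 weeks, and no genotype was separate from another.

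Reg2, the nearest relative of Reg1, ranged more widely, from 12.5 to 2179 CPM (174-fold). At 8 weeks it had 2179, 161 and 19.2 CPM in WT, 866, 304 and 40.5 in HET and 74.8, 13.6 and 23.5 in βEedKO. At 25 weeks it had 355, 21.9 and 98.9 CPM in WT, 91.2 and 12.5 in HET, and 615 and 16.5 in βEedKO. WT replicate 1 at 8 weeks carried 34344 reads of this gene and WT replicate 4 of the same group 363.

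Reg3d, whose role in the pancreas is less studied, had 187, 28.1 and 10.1 CPM in WT, 82.6, 33.9 and 26.0 in HET and 34.9, 7.17 and 10.0 in βEedKO at 8 weeks. At 25 weeks the values were 76.5, 11.7 and 83.0 CPM in WT, 20.5 and 16.2 in HET, and 277 and 5.01 in βEedKO. Its highest and lowest libraries were those of Reg1 except at 8 weeks, where Reg1 was lowest in WT replicate 4 and Reg3d in βEedKO replicate 4.

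Reg3a had few reads, with 2 in βEedKO replicate 5 at 8 weeks (exact Poisson interval 0.242 to 7.22) and at most 747. It reached 47.4 CPM in WT replicate 1 at 8 weeks, and 3.26 and 0.794 CPM in the other WT libraries of that age. HET libraries had 25.6, 11.2 and 1.72 CPM and βEedKO libraries 2.14, 3.96 and 0.173 CPM at 8 weeks. At 25 weeks there were 12.6, 0.602 and 3.79 CPM in WT, 2.18 and 0.175 in HET, and 26.2 and 1.57 in βEedKO.

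At 8 weeks the level of Reg3b was 312, 25.3 and 6.46 CPM in WT, 100.2, 59.6 and 6.54 CPM in HET and 11.7, 16.1 and 5.28 CPM in βEedKO islets. The 25-week islets held 75.4, 14.7 and 86.4 CPM (WT), 61.9 and 3.38 CPM (HET), and 255 and 112 CPM (βEedKO). At this age both βEedKO libraries were above all WT libraries, although the lower of them, replicate 3, had the lowest acinar level of the series.

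Reg3g had 46.5, 1.16 and 0.477 CPM in WT, 6.20, 3.37 and 0.413 in HET and 6.74, 6.47 and 0.433 in βEedKO at 8 weeks. At 25 weeks WT islets had 2.83, 0.451 and 2.55 CPM, HET islets 1.42 and 1.17, and βEedKO islets 10.6 and 28.6 CPM. Both βEedKO libraries were again above all WT libraries. The counts behind these values were small in most libraries, 5 to 142 reads in 14 of 16, and 733 and 709 in WT replicate 1 at 8 weeks and βEedKO replicate 3 at 25 weeks.

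**Figure D1:**
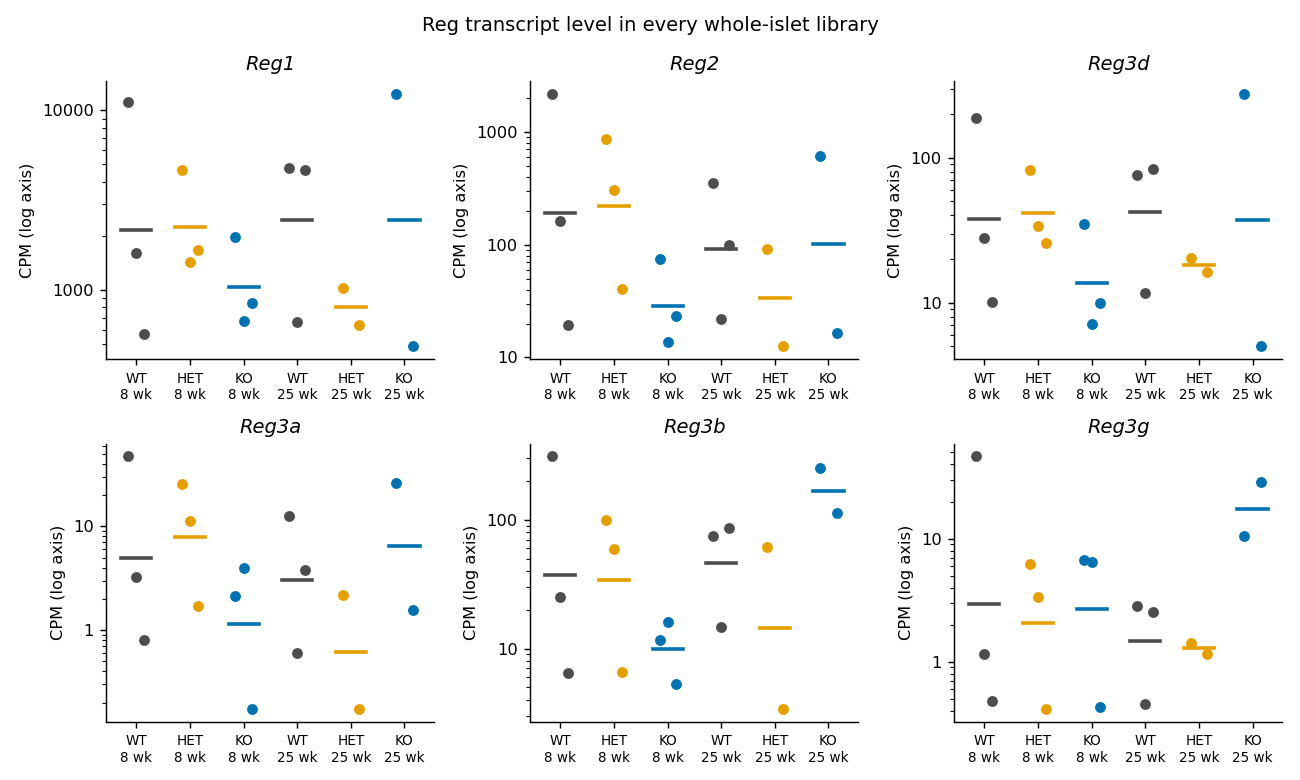
Level of each Reg gene in CPM (log axis) in every library, by genotype and age. Points are libraries and bars are geometric means. Reg1 spans 485 to 12379 CPM over all libraries, and at 25 weeks the 2 βEedKO points lie above the 3 WT points for Reg3b and Reg3g.

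Compared per kilobase of exon, median levels were 1678 CPM per kb for Reg1, 87.2 for Reg2, 37.2 for Reg3b, 34.6 for Reg3d, 3.29 for Reg3a and 1.27 for Reg3g. Reg1 was first in 16 of 16 libraries and Reg2 second in 13. Reg3d was above Reg3b in 11 libraries and below it in 5, so these neighbours were not ordered beyond their spread. Reg3a was above Reg3g in 13. The exon length of Reg3g (2114 bases) includes a transcript with a retained intron, which lowers its value per kb. In βEedKO replicate 3 at 25 weeks the order was different, with Reg3b second and Reg3g above Reg3d and Reg3a. Reg1 made up 74.7% of all Reg reads in that library and 92.2% at the median. Together the 6 members took 0.0618% (Wilson 95% interval 0.0607 to 0.0629, counting error only) to 1.16% (1.15 to 1.16) of the reads of a library.

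The question that the comparison with acinar genes addresses is how far the Reg level of an islet library moves with its acinar RNA. The summed Reg level followed both acinar transcripts over the 16 libraries (log2(CPM + 0.5), Pearson r = 0.90 and Spearman rho = 0.84 with Ctrb1, r = 0.88 and rho = 0.81 with Cpa1). Of 14 relations computed (6 members and their sum with both genes), Reg1 and Reg3d had the highest r. For Reg3d r was 0.93 with Ctrb1 and 0.94 with Cpa1, and for Reg1 it was 0.91 and 0.90, each with a permutation p of 1e-05, the smallest that 100000 permutations can give, and a Benjamini-Hochberg adjusted p of 3.5e-05. Their rho was 0.91 and 0.91 for Reg3d and 0.87 and 0.83 for Reg1. Without the 2 libraries farthest from the median acinar level (WT replicate 4 and βEedKO replicate 2 at 25 weeks), r with Ctrb1 was still 0.91 for Reg3d and 0.88 for Reg1.

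Within the 9 libraries of 8 weeks, r with Ctrb1 was 0.92 for Reg1 (exact permutation p = 0.00133) and 0.91 for Reg3d (exact p = 0.00106). Within the 7 libraries of 25 weeks it was 0.92 (exact p = 0.00298) and 0.95 (exact p = 0.000794). Without the 4 interferon-high libraries (12 left) r was 0.90 for Reg1 and 0.92 for Reg3d. Deviations from the group means gave 0.91 and 0.92, so libraries of the same genotype and age differed in the same way.

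Reg2 and Reg3a followed the acinar genes less closely. With Ctrb1 the r of Reg2 was 0.75 (rho = 0.76, adjusted p = 0.0019, permutation test) and that of Reg3a 0.70 (rho = 0.63, adjusted p = 0.0039). At 8 weeks their r was 0.90 (exact p = 0.00142) and 0.80 (exact p = 0.011), and at 25 weeks 0.74 (exact p = 0.0647) and 0.70 (exact p = 0.079), which does not pass 0.05 with 7 libraries. Reg3b had r = 0.57 with Ctrb1 (adjusted p = 0.027, permutation test) and rho = 0.44 (adjusted p = 0.11). Without the 2 farthest libraries its r was 0.41 (permutation p = 0.15), so over all ages the relation rested on those libraries, both of 25 weeks. At 8 weeks, where neither enters, the r of Reg3b was 0.80 with Ctrb1 (exact p = 0.0106) and 0.79 with Cpa1 (exact p = 0.0132), and at 25 weeks it was 0.42 (exact p = 0.36) and 0.30 (exact p = 0.511). Reg3g had no relation that passed, either with Ctrb1 (r = 0.28, rho = 0.18, adjusted p = 0.31 and 0.51, permutation test) or with Cpa1 (r = 0.21). With Cpa1 the order of the members was the same.

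**Figure D2:**
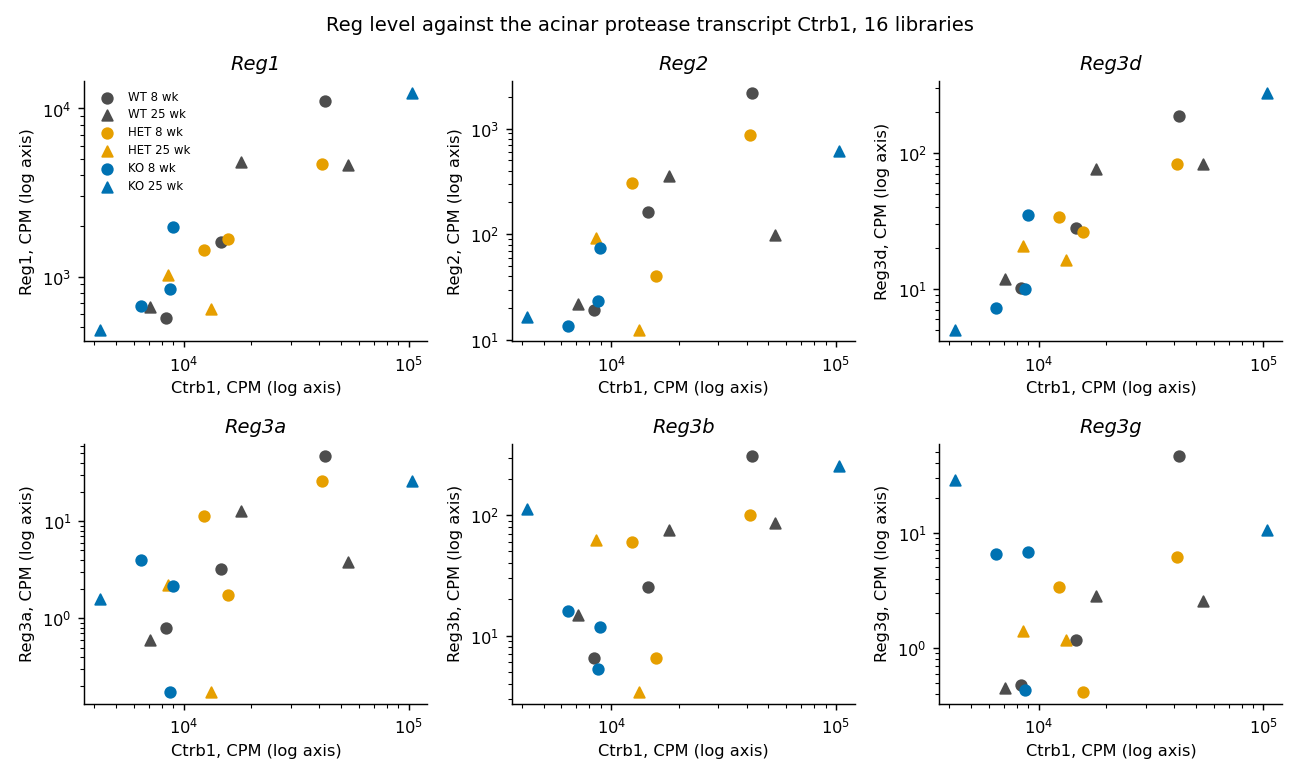
Level of each Reg gene against Ctrb1, both in CPM on log axes, in 16 libraries. Colours are genotypes, circles 8 weeks and triangles 25 weeks. Reg1 and Reg3d lie close to a line (r = 0.91 and 0.93), while the blue triangle at the lowest Ctrb1 level, βEedKO replicate 3, is low in Reg1 and Reg3d and high in Reg3b and Reg3g.

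Among the members themselves, Reg1 and Reg3d were the closest of 15 pairs (r = 0.98, rho = 0.93, adjusted p = 3.7e-05, permutation test). Reg2 and Reg3a followed, with r = 0.92 (rho = 0.82). Reg3d and Reg3g were the most distant pair, with r = 0.39 (rho = 0.38, adjusted p = 0.14). Reg3g was nearest to Reg3b, at r = 0.75 (rho = 0.74, adjusted p = 0.0015, permutation test), and r was 0.68 without the 2 libraries farthest in Reg3b. Reads of Reg3d per 100 reads of Reg1 stayed between 1.03 and 2.54 in all libraries, whereas Reg3b per 100 Reg1 ran from 0.393 to 23.1, a 58.9-fold range. By position, Reg1 and Reg3d are not neighbours, as Reg3a and Reg2 lie between them.

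The SD of log2 level fell from 1.53 to 0.64 for Reg1 and from 1.68 to 0.66 for Reg3d when each was expressed per read of Ctrb1 and Cpa1. It went from 2.35 to 1.63 for Reg2, from 2.42 to 1.89 for Reg3a and from 2.05 to 1.71 for Reg3b, and was 2.13 and 2.16 for Reg3g. Per 1000 acinar reads, Reg1 had 31.7 to 184 reads, with a median of 80.7, and Reg3d 0.805 to 3.11.

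At 25 weeks Reg1 had 167, 61.7 and 58.1 reads per 1000 acinar reads in WT and 86.0 and 88.8 in βEedKO, so the βEedKO libraries that differed 25.5-fold in CPM were alike on this scale and lay inside the WT range. Reg3b had 2.63, 1.38 and 1.08 in WT, and 1.77 and 20.5 in βEedKO. Reg3g had 0.0988, 0.0421 and 0.0320 in WT, and 0.0735 and 5.24 in βEedKO. HET libraries had 4.89 and 0.168 for Reg3b, and 0.112 and 0.0579 for Reg3g. HET replicate 1 was thus above all WT libraries of that age in both genes. Of the βEedKO libraries, only replicate 3 stood above WT per acinar read in these genes, and replicate 2 lay within the WT range. In that replicate 3 Ctrb1 and Cpa1 were at 4235 and 1224 CPM, the lowest of the series.

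At 8 weeks Reg3b had 5.19, 1.28 and 0.583 reads per 1000 acinar reads in WT, 1.76, 3.58 and 0.291 in HET, and 0.911, 1.87 and 0.461 in βEedKO. Reg3g had 0.774, 0.0588 and 0.0430 in WT, 0.109, 0.202 and 0.0184 in HET, and 0.526, 0.752 and 0.0378 in βEedKO. The ratio of Reg3g to Reg3b was high in some βEedKO libraries, with 57.7 and 40.2 Reg3g reads per 100 Reg3b reads in replicates 1 and 4 at 8 weeks and 25.5 in replicate 3 at 25 weeks, but 8.20 and 4.15 in the other 2. WT libraries had 2.95 to 14.9. HET replicate 2 at 25 weeks reached 34.5, on 20 and 58 reads.

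**Figure D3:**
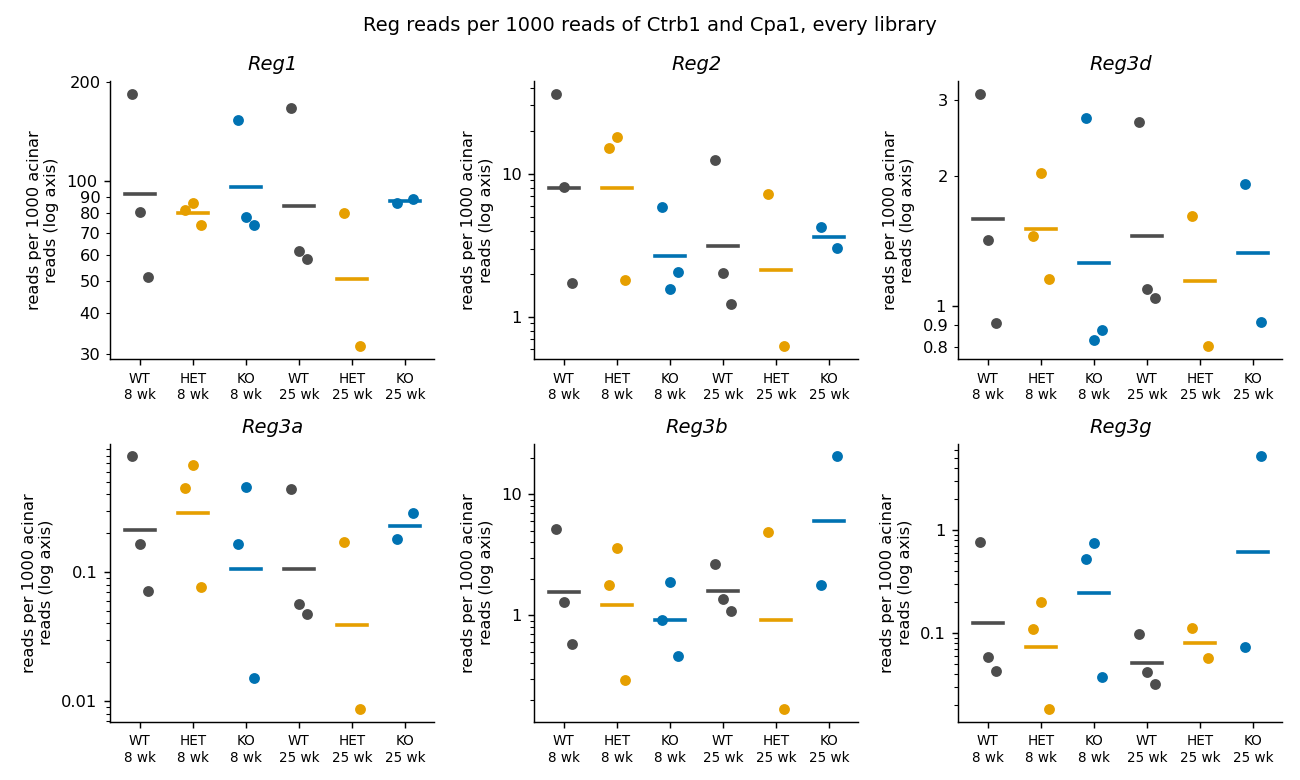
Reads of each Reg gene per 1000 reads of Ctrb1 and Cpa1 (log axis) in every library, by genotype and age. Points are libraries and bars are geometric means. The 2 βEedKO libraries of 25 weeks nearly coincide for Reg1 (86.0 and 88.8) and are far apart for Reg3b (1.77 and 20.5) and Reg3g (0.0735 and 5.24).

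The comparison of βEedKO with WT asks whether loss of Eed in β cells changed the Reg level of the islet. At 25 weeks 0 of 6 members passed an adjusted p of 0.05 in edgeR's quasi-likelihood test, where 6.6% of 18685 genes did. All 6 had passed the filter on low counts. Log2 fold changes were above 0 for all 6, with a median of 1.29 against 0.029 over all genes tested, and their intervals all included 0. Reg3g had the largest, 3.33 (SE 1.63, 95% interval -0.28 to 6.94, adjusted p = 0.289 in edgeR). Reg3b had 1.60 (SE 1.21, adjusted p = 0.519), Reg3a 1.32 (SE 1.66), Reg3d 1.27 (SE 1.43), Reg2 0.96 (SE 1.71) and Reg1 0.90 (SE 1.35). Ctrb1 and Cpa1 had 1.00 (SE 1.20) and 0.59 (SE 1.23).

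For 2 of 6 members, Reg3b and Reg3g, every βEedKO library lay above every WT library, which held for 22.9% of all genes tested. These fold changes rest on 2 βEedKO libraries that were unlike each other. Without βEedKO replicate 2 the fold changes of Reg1, Reg2, Reg3a and Reg3d turned to -2.87, -3.33, -1.85 and -3.58, with a single βEedKO library left whose spread was taken from the other groups, and those of Reg3b and Reg3g ranged from 0.86 to 2.07 and from 2.45 to 3.86 over all libraries left out in turn. With the acinar level as a covariate, the log2 fold changes were 0.083 for Reg1, -0.19 for Reg2, -0.075 for Reg3d, 0.64 for Reg3a, 2.25 for Reg3b and 4.29 for Reg3g, the last with an adjusted p of 0.269 in edgeR.

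At 8 weeks 0 of 6 members passed, where 0.434% of genes did. All 6 log2 fold changes were below 0, with a median of -2.52 against 0.0039 over all genes. The unadjusted 95% intervals of Reg2 (-4.37, SE 1.77, interval -8.30 to -0.44, adjusted p = 0.564 in edgeR) and Reg3b (-3.33, SE 1.21, interval -6.00 to -0.66, adjusted p = 0.471) lay below 0, and those of the others included 0. Values were -2.96 for Reg3a (SE 1.59), -2.08 for Reg3d (SE 1.35), -1.90 for Reg1 (SE 1.26) and -1.76 for Reg3g (SE 1.41). Ctrb1 and Cpa1 had -1.42 (SE 1.11) and -1.52 (SE 1.13). No member had all βEedKO libraries below all WT libraries, a pattern that 4.78% of genes showed, nor all above (6.63%).

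WT replicate 1, the library with the highest level of each member at that age, decided these values. Without it the log2 fold changes were 0.068 for Reg1, -1.31 for Reg2, 0.055 for Reg3a, -0.54 for Reg3b, -0.17 for Reg3d and 2.45 for Reg3g. In the 4 interferon-high libraries alone, set against each other, they were -0.51 for Reg1, -2.28 for Reg2, 0.087 for Reg3a, -0.56 for Reg3b, -1.16 for Reg3d and 2.10 for Reg3g, and 0 of 6 passed. Between WT replicate 1 and βEedKO replicate 1, the low-interferon pair, they were -2.48, -4.85, -4.46, -4.73, -2.41 and -2.77 in the same order. The sign was thus negative in both sets for Reg1, Reg2, Reg3b and Reg3d, and differed between them for Reg3a and Reg3g.

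**Figure D4:**
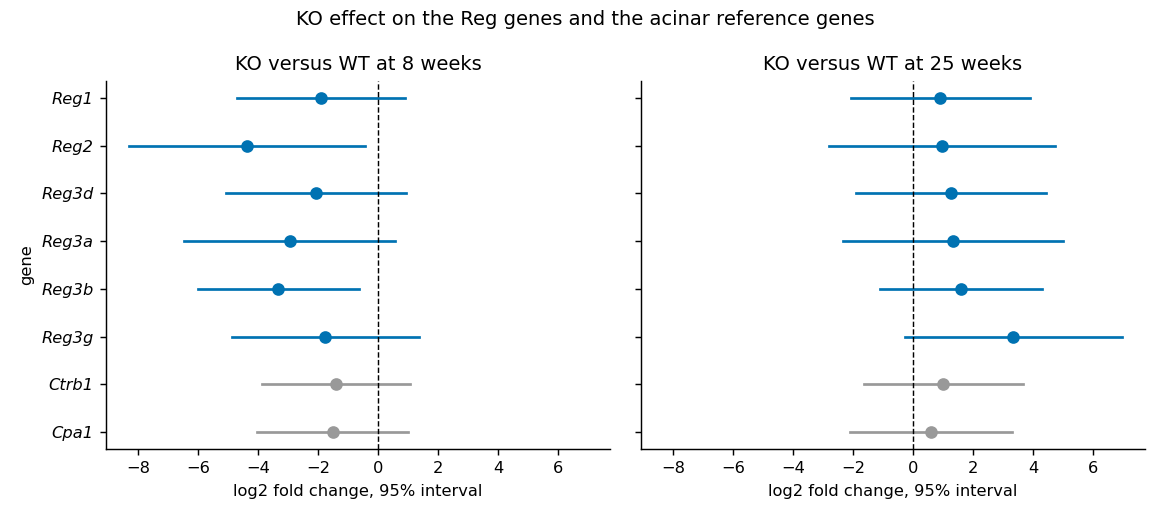
Log2 fold change of βEedKO over WT (x axis) with its 95% interval for each Reg gene and for Ctrb1 and Cpa1 in grey, at 8 and 25 weeks. All points are below 0 at 8 weeks and above 0 at 25 weeks, none passed the adjusted threshold. Intervals of Reg2 and Reg3b at 8 weeks lie below 0 and the others cross it.

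The βEedKO effect at 25 weeks minus that at 8 weeks did not pass for any of 6 members, where 0.198% of genes passed. The differences were 5.33 for Reg2, 5.10 for Reg3g, 4.93 for Reg3b, 4.27 for Reg3a, 3.35 for Reg3d and 2.80 for Reg1, with SE of 1.69 to 2.39 and a smallest adjusted p of 0.431 (Reg3b, edgeR). Ctrb1 and Cpa1 had 2.42 and 2.12. Between 25 and 8 weeks in βEedKO islets, 0 of 6 passed where 1.5% of genes did. The paper places the onset of diabetes in βEedKO males within this span. Reg3b came nearest, with a log2 fold change of 4.01 (SE 1.29, adjusted p = 0.188). It passed in DESeq2 (adjusted p = 0.0495), without the filter on low counts (0.0487 in edgeR), without WT replicate 1 of 8 weeks (0.0412) and with the interferon-high libraries alone at 8 weeks (0.0323). Over all genes, DESeq2 called 960 in this comparison, against 281 by edgeR. Without βEedKO replicate 2 of 25 weeks the log2 fold change of Reg3b was 3.27. The other members had 2.04 to 3.06, and without that library Reg1, Reg2, Reg3a and Reg3d had -1.32, -1.23, -0.51 and -1.85. Ctrb1 and Cpa1 had 2.71 and 2.81. In WT, 0 of 6 passed between the ages, where 0% of genes did (0 of 18685 by edgeR, 1898 at an unadjusted p under 0.05, and 139 by DESeq2). Log2 fold changes were -3.05 to -0.35, and 0.79 to 1.86 without WT replicate 1 of 8 weeks.

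In HET against WT, 0 of 6 members passed at either age. No gene passed in edgeR (0% of 18828 at both ages, with 210 at 25 weeks and 2743 at 8 weeks at an unadjusted p under 0.05, and 3 and 407 by DESeq2). Log2 fold changes ranged from -2.17 to -0.52 at 25 weeks and from -2.26 to -0.41 at 8 weeks, with SE of 1.13 to 1.89. Intervals were wide throughout. For Reg1 in HET at 8 weeks the interval ran from -3.21 to 1.67, so neither a several-fold rise nor a several-fold fall is outside it.

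Transcripts of the signals known to induce Reg3b and Reg3g were examined as lists. Of 20 genes of the IL-6 and IL-22 pathway (ligands, receptors, JAK and STAT genes), 19 were tested and 0 passed in βEedKO at 25 weeks, with 10 fold changes above 0 and a median of 0.45. The count was 2 with the replicate block and without the filter, 1 without βEedKO replicate 1 of 8 weeks or βEedKO replicate 2 of 25 weeks, and 3 in DESeq2, in the fit of all 16 libraries and with WT and HET pooled as control. At 8 weeks 0 of 19 passed, and 1 with WT and HET pooled as control. Over all genes, DESeq2 called 2093 at 25 weeks, against 1234 by edgeR, and 393 against 81 at 8 weeks. Of 20 acute-phase and STAT3-responsive genes, 18 were tested and 1 rose at 25 weeks, a share no higher than the 6.6% of all genes called. It was the siderophore-binding protein gene Lcn2, with a log2 fold change of 4.53 (SE 0.89, adjusted p = 0.0144 in edgeR). Of the 18 fold changes at that age, 10 were above 0 and 8 below, with a median of 0.58. The summed level of the list, with Fos the highest gene, went the other way from Lcn2. It was 1359 and 1657 CPM in βEedKO and 1755 to 5472 CPM in WT at 25 weeks. Lcn2 had 0.654, 0.226 and 0.696 CPM in WT and 15.0 and 9.28 in βEedKO at 25 weeks, so both βEedKO libraries were above all WT libraries. The call was lost without WT replicate 3, WT replicate 4 or βEedKO replicate 2 of that age. At 8 weeks Lcn2 had 5.84, 4.24 and 2.44 CPM in WT and 41.3, 3.81 and 26.5 in βEedKO. Of the 18 tested acute-phase and STAT3-responsive genes, 0 passed at 8 weeks, with 15 fold changes above 0, 3 below and a median of 0.86. Other fits at that age called 2 (DESeq2, and WT and HET pooled as control) or 1 (without the filter, or without βEedKO replicate 1 or 4 of 8 weeks). Extl3, proposed as a Reg receptor, was the most abundant of 3 relatives and receptors at 33.4 to 104 CPM, and 0 of 3 passed at either age. Reg4, the remaining family member, which lies outside the named rule and was looked at after its values were seen, had 0 reads in the 3 WT and 2 HET libraries of 25 weeks and 7 and 142 reads in βEedKO replicates 2 and 3. At 8 weeks it had 33, 0 and 0 reads in WT, 28, 0 and 0 in HET, and 4, 43 and 0 in βEedKO, so the genotypes overlapped.

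Markers of other cell types were counted in the same way, against the 6.6% of all genes called at 25 weeks. Of 29 acinar genes, 2 rose in βEedKO at 25 weeks, a share near that background, and the summed acinar level of the βEedKO libraries (17497 and 572383 CPM) lay on both sides of the WT range (41812 to 301081 CPM). The called genes were the trypsinogen genes Prss1 (log2 fold change 7.72, adjusted p = 0.000316 in edgeR) and Prss3 (3.42, adjusted p = 0.0214). These belong to a family of near-identical copies, so their reads are uncertain. Of 12 duct genes 3 rose, namely Spp1 (2.996, adjusted p = 0.00537), Sox9 (2.98, 0.0189) and Krt19 (3.62, 0.0334), and of 12 macrophage genes 2 rose, Cd14 (2.38, 0.0391) and Ptprc (1.90, 0.042). Of the 12 duct and 12 macrophage markers, 0 were at 0 in all libraries. Summed duct genes had 1021 to 2532 CPM in WT and 2108 and 2363 CPM in βEedKO at 25 weeks, with Krt8 the highest. Summed macrophage genes had 112 to 213 CPM in WT and 525 and 208 CPM in βEedKO, with Lyz2 the highest. Of 7 hormone genes 2 fell, Ins1 (-3.85, adjusted p = 0.0141) and Iapp (-3.17, 0.0227), with 4 fold changes below 0 and 3 above. Ins2, the most abundant hormone gene, had -3.42 and did not pass (adjusted p = 0.0626 in edgeR). The macrophage and hormone calls were lost in other fits, with 0 genes of each list called under the replicate block or without βEedKO replicate 2 or 3. Duct calls dropped to 1 without WT replicate 2 or 3 or βEedKO replicate 3, and acinar calls to 1 without WT replicate 2 or 3 or βEedKO replicate 2. Of 10 interferon-induced genes 0 passed at either age. At 8 weeks 0 genes of these lists passed. Other fits at that age called 2 acinar genes (DESeq2, and edgeR with library size alone as scaling, without the filter or without WT replicate 3 of 25 weeks) or 1 (edgeR with all 16 libraries or without WT replicate 4 of 25 weeks). DESeq2, which called 393 genes over all at 8 weeks, called 3 macrophage genes. With WT and HET pooled as control edgeR called 2 macrophage genes and 1 duct gene. The part of these cell types in the Reg values was not tested.

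Genes other than the 6 members were ranked by their likeness to each member, as a description. The measure was Pearson r of log2(CPM + 0.5) over the 16 libraries. Relations among the members, given above, were left out of this ranking and were in part closer. Nearest to Reg1 were Erp27, Tmed11, Pdia2, Cldn10 and Tmed6 (r = 0.98 to 0.95), which include the protein disulfide isomerase family members Erp27 and Pdia2 and the cargo transport genes Tmed11 and Tmed6. Among its 50 nearest genes, 17 of the 29 acinar genes appeared. Nearest to Reg3d were 1810018F18Rik, Cpb1, Erp27, Serpini2 and Cabp2 (r = 0.97 to 0.96), with 20 of the acinar genes in the top 50. Reg2 was nearest to Rnf212, Mpv17l2, Tmed11, Erp27 and Cldn10 (r = 0.86 to 0.84), with 6 acinar genes, and Reg3a to Cldn10, Rnf212, Habp2, Aldh1l1 and Dhrs1 (r = 0.84 to 0.81), with 2. For Reg3b they were Slc25a45, Flrt2, Ggta1, Map4k1 and Ttpa (r = 0.84 to 0.81), and for Reg3g Anxa13, Ces2g, Slc22a18, Rps6ka1 and Slc26a6 (r = 0.94 to 0.92), both with 0 acinar genes in the top 50.

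The deposited segmentation gives each 200 bp of wild-type islet chromatin 1 letter, built from histone marks, Pol2 and DNA methylation. States A to J were counted as active here. Of genes with a start in state A, 90.1% had a mean of at least 1 CPM in WT islets at 8 weeks. For states E to J this share was 6.08% (I) to 16.7% (F). In state L, not counted as active, it was 55.8%. At the annotated start sites, 0 of 6 Reg genes lay in an active state, against 38.1% of 42903 genes with a state. Reg1 lay in state Q, Reg2 in U, Reg3a in N, Reg3b in T, and Reg3d and Reg3g in P. The paper's text places N among the Polycomb states. It does not describe P, Q, T or U in words, so the marks of these letters are not named here. Few genes with a start in these states had a mean of at least 1 CPM in WT islets at 8 weeks. The share was 7.14% for N, 4.19% for P, 4.51% for Q, 1.38% for T and 3.04% for U. RefSeq places the start of Reg2 further downstream, in state P, and leaves the other 5 states as they were. Over the gene body the largest share was Q, P, N, T, P and P for Reg1, Reg2, Reg3a, Reg3b, Reg3d and Reg3g.

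In WT islets at 8 weeks the mean level of Reg1, 4410 ± 5783 CPM (SD, n = 3), was above that of 99.96% of the 2439 genes with a start in state Q. Reg3b was above 99.87% of 3036 genes in state T, and Reg3g, the lowest member, above 98.9% of 3675 genes in state P. Of 29 acinar genes, 4 had a start in an active state (13.8%), with Ctrb1 in O and Cpa1 in N, and of 7 hormone genes 2 had. Over the whole Reg cluster, state P covered 37.1% of bases, T 25.2% and Q 19.3%, against 16.5%, 7.04% and 10.9% of the segmented genome. The RNA came from whole islets. Per the methods, the segmentation joined the study's islet ChIP-seq with outside ChIP-seq, some of it from females. It also used outside DNA methylation, named there as of young islets and in the list of resources as of β cells. The segmentation, 1 for all replicates, holds no replicate spread.

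**Figure D5:**
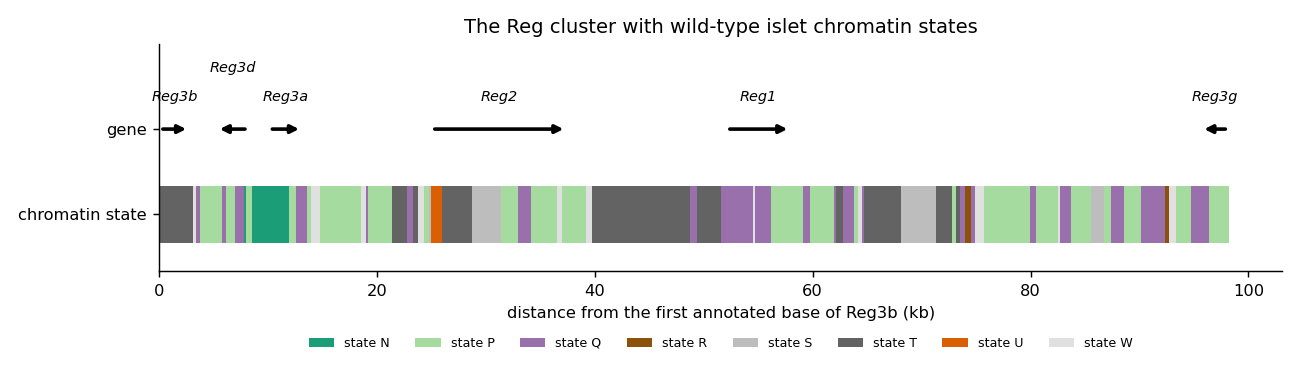
The Reg cluster drawn to scale, as distance in kb from the first annotated base of Reg3b. Arrows are genes pointing in the direction of transcription and the bar gives the chromatin state of wild-type islets. States P, T and Q cover most of the 98.2 kb, and no active state (A to J) occurs.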

How the data were processed

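Bulk RNA-seq of whole islets, 16 libraries in 6 groups, was analysed. The deposited values are raw read counts for each gene, which the authors made with TopHat 2.0.13 on GRCm38 and featureCounts (Subread 1.5.0-p1) on Gencode M9 models. Whether strand was used is not given in the sources used here. The authors also deposited chromatin states as 1 EpicSeg letter per segment. Single-cell and ChIP-seq data were not used here. No count column was left unmapped (0). The 47937 identifiers were matched to Gencode M21 names (47224 matched, 713 not).

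Counts were scaled by TMM and filtered with filterByExpr in edgeR 4.0.16 (R 4.3.3, limma 3.58.1). WT and βEedKO were compared in 1 fit of 11 libraries (18685 genes) and HET in a fit of 16 (18828 genes), with the quasi-likelihood test, Benjamini-Hochberg adjustment over all genes and a threshold of 0.05. SE was taken from the fold change and its F statistic (size of log2 fold change over root F). DESeq2 1.42.0 was an alternative. Levels are TMM-scaled CPM from all 16 libraries, with a pseudocount of 0.5 CPM on the log scale. Correlations were tested by two-sided permutation, exactly within an age. Scripts were tested on simulated data.

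Named genes are the 6 members, Ctrb1, Cpa1, Eed and the 5 genes other than members that were most like each member. From each list they are genes called in βEedKO against WT (at most 4) with the most abundant marker. Members and lists were chosen with earlier results of these data known. No label states that same-numbered libraries are paired. Deviations from group means of same-numbered WT and βEedKO libraries had r = 0.457 and 0.163 at 8 weeks, and 0.176 and 0.255 at 25 weeks (18828 genes). Libraries with different numbers were not compared, and the pairs at 8 weeks were also alike in interferon-induced genes. These values therefore do not show a pairing. The numbers were treated as pairs in the blocked fit. Libraries of a group differed beyond sampling noise (chi-square per degree of freedom at least 31.03). Poisson and Wilson intervals cover counting error only, while intervals of fold changes come from the quasi-likelihood fit and include the spread between libraries. The methods call the libraries biological replicates. P-values measure the spread between these libraries.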

Additional observations from a re-analysis of the deposited data

How the results depend on the processing

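Members called remained 0 of 6 under every alternative run (scaling, filter, test, replicate block, acinar covariate, pooled control, libraries left out) in 6 of the 7 comparisons. The exception was βEedKO at 25 against 8 weeks, with 1 call (Reg3b) in DESeq2, without the filter, with the interferon-high libraries alone at 8 weeks, and between 0 and 1 with 1 library left out. Over all genes, DESeq2 called 960 in that comparison, against 281 in edgeR. With the replicate block the count of members called was 0 in the 5 genotype comparisons it could be fitted to, and it changed no call of a member. Of 924 alternative values of 42 member tests, 864 kept direction and side, 56 changed sign without passing and 4 passed. DESeq2 gave Reg3g no adjusted p in the comparisons of WT and βEedKO, so it could not be called there. Those values kept their direction (log2 fold change 3.30 in βEedKO against WT at 25 weeks) and are counted among the 864. The correlation of the summed Reg level ranged from 0.87 to 0.92 with Ctrb1 and from 0.85 to 0.93 with Cpa1 with 1 library left out. The alternatives named for the interferon-high libraries and for the pair with the most acinar RNA were chosen after seeing the data. Reg3a had 2 to 747 and Reg3g 5 to 733 reads per library, and each group held 2 or 3 libraries.

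Signs changed as follows (log2 fold change), and the cause was not tested. With the acinar level as covariate, βEedKO against WT gave -0.19 for Reg2 and -0.075 for Reg3d at 25 weeks, 0.15 for Reg1 and 0.095 for Reg3d at 8 weeks. The difference between the ages became -0.063 for Reg1 and -0.17 for Reg3d, and βEedKO at 25 against 8 weeks became -0.29 for Reg1, -0.052 for Reg2 and -0.44 for Reg3d. HET against WT became 0.14 for Reg3b and 0.13 for Reg3g at 25 weeks and 0.23 for Reg3a at 8 weeks. Without WT replicate 4 and βEedKO replicate 2 at 25 weeks, βEedKO against WT was -2.56 for Reg1, -3.58 for Reg2, -2.08 for Reg3a and -3.20 for Reg3d, and the difference between the ages -0.66 for Reg1 and -1.10 for Reg3d. The replicate block gave 0.094 for Reg3g at 8 weeks. With the interferon-high libraries alone at 8 weeks, βEedKO against WT was 0.087 for Reg3a and 2.10 for Reg3g, and WT at 25 against 8 weeks 1.64 for Reg1, 0.81 for Reg2, 1.40 for Reg3a, 1.89 for Reg3b, 1.58 for Reg3d and 1.19 for Reg3g. Reg3b in βEedKO at 25 against 8 weeks was 4.04 in DESeq2, without the filter and in the interferon-high set.

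With 1 library left out, signs turned within these ranges. Where 1 βEedKO library of 25 weeks was left, it was assumed to vary like the other groups. βEedKO against WT at 25 weeks was -2.87 to 1.84 for Reg1, -3.33 to 2.35 for Reg2, -1.85 to 2.61 for Reg3a and -3.58 to 2.24 for Reg3d. At 8 weeks it was -2.51 to 0.068 for Reg1, -3.80 to 0.055 for Reg3a and -2.36 to 2.45 for Reg3g. The difference between the ages was -0.96 to 3.76 for Reg1 and -1.49 to 4.35 for Reg3d. WT at 25 against 8 weeks was -0.88 to 1.61 for Reg1, -3.66 to 0.79 for Reg2, -2.92 to 1.41 for Reg3a, -1.48 to 1.86 for Reg3b, -0.88 to 1.55 for Reg3d and -3.63 to 1.17 for Reg3g. βEedKO at 25 against 8 weeks was -1.32 to 3.39 for Reg1, -1.23 to 4.04 for Reg2, -0.51 to 3.57 for Reg3a and -1.85 to 3.99 for Reg3d, and 3.27 to 4.49 for Reg3b. HET against WT was -4.11 to 0.084 for Reg3b at 25 weeks, and at 8 weeks -1.51 to 1.20 for Reg1, -2.19 to 2.11 for Reg2, -1.40 to 2.61 for Reg3a, -1.79 to 1.74 for Reg3b, -1.32 to 1.25 for Reg3d and -3.04 to 1.95 for Reg3g.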
